A study of Mus musculus with 40 samples.

Results

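Cardiac fibroblasts make CC chemokines, the small secreted proteins with adjacent cysteines that draw leukocytes out of the blood along a gradient. The 10 CC chemokine genes described are Ccl2, Ccl7, Ccl8, Ccl11, Ccl12, Ccl5, Ccl9, Ccl17, Ccl20 and Ccl27a. They were found by mouse symbol among the 55414 gene identifiers of the count table, and all 10 were among the 25210 genes that entered the tests. Ccl2 (ENSMUSG00000035385), Ccl7 (ENSMUSG00000035373), Ccl11 (ENSMUSG00000020676), Ccl12 (ENSMUSG00000035352) and Ccl8 (ENSMUSG00000009185) lie in that order on the + strand of chromosome 11 (GRCm38), from 82035571 to 82116799, and are called the chromosome 11 cluster below. Ccl5 (ENSMUSG00000035042, 83525778 to 83530518) and Ccl9 (ENSMUSG00000019122, 83572919 to 83578636) are also on chromosome 11, on the - strand, 1.41 Mb beyond Ccl8, and are counted with the other members. Ccl17 (ENSMUSG00000031780) is on chromosome 8 from 94810453 to 94812036, Ccl20 (ENSMUSG00000026166) on chromosome 1 from 83116766 to 83119167, and Ccl27a (ENSMUSG00000073888) on chromosome 4 from 41769467 to 41774247. Ccl27a has a near-identical copy, Ccl27b, listed at 0 counts in all 40 libraries, so how reads that fit both were assigned leaves its level uncertain, and its end overlaps Il11ra1 by 8 bases.

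RNA was measured in cardiac fibroblasts of C57BL/6J_TAK1fl/fl mice, in which loxP sites flank part of Map3k7, the gene of the kinase TAK1. All cultures were expanded with 20 ng/ml human bFGF, used at passage 1, and given an adenovirus whose CMV promoter drives either LacZ, the control, or iCre, a Cre recombinase that deletes the flanked exon in whichever cells take up the virus. Serum-starved cells then received no ligand, bFGF (20 ng/ml), TGFb (10 ng/ml), IL-1b (15 ng/ml) or TNFa (10 ng/ml) for 24 h, which gives 10 groups of 4 biological replicates from male mice. The sources do not tie a replicate to an animal, so p-values measure the spread between these cultures. Library totals ran from 25360947 to 66160732 counts, and no pair among the 60 same-group pairs was within sampling noise. Map3k7 counts include reads outside the deleted exon, so the gene total only partly checks the label: it was 144 to 159 CPM (counts scaled to the size of the library) in the LacZ and 123 to 133 CPM in the iCre libraries without ligand, and group means were 153 to 239 CPM in LacZ against 126 to 150.4 CPM in iCre. Fibroblast markers were abundant (Col1a1 4907 ± 625 CPM in LacZ without ligand), whereas the lymphoid markers Cd3e and Nkg7 were at or near 0. The summed level of 10 macrophage and monocyte markers had group medians of 46.5 to 98.7 CPM in LacZ and 37.3 to 76.3 CPM in iCre, mostly Lyz2. CPM rose with the GC content of genes in every iCre library with TGFb, IL-1b or TNFa (slopes of 0.26 to 0.28, 0.21 to 0.30 and 0.19 to 0.29 on the log2 scale per 10% GC) and fell with it in every other library (-0.22 to -0.0076), so comparisons of these iCre groups were also fitted with a GC correction. Fewer cells of a type and less RNA per cell cannot be told apart in bulk RNA.

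CC chemokines act through G protein-coupled receptors. Ccl2, Ccl7 and Ccl12 are monocyte chemoattractant proteins, which recruit monocytes chiefly through CCR2, and mouse Ccl8 is known as a CCR8 ligand. Ccl11, or eotaxin, attracts eosinophils through CCR3. Ccl5 (RANTES) draws T cells, monocytes and other leukocytes through receptors that include CCR1 and CCR3, and Ccl9 binds CCR1. Ccl17 attracts CCR4-bearing T cells, Ccl20 attracts CCR6-bearing dendritic cells and lymphocytes, and Ccl27a, the mouse counterpart of human CCL27, is known as a CCR10 ligand of the skin. IL-1b and TNFa reach many chemokine genes through TAK1, which activates the IκB kinases that free NF-κB, and through MAP kinases that act on AP-1.

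The letters just before the gene starts are shown because the ligands act on transcription, so that members can be set side by side. Of the 10 members, 6 had an entry in the RefSeq promoter table (GRCm38.p6). The 250 bases before the start are printed 5′ to 3′ in gene direction for Ccl12 (chr11:82101595-82101844, + strand) and Ccl8 (chr11:82114935-82115184, + strand) of the cluster, and for Ccl9 (chr11:83578637-83578886, - strand), Ccl20 (chr1:83116516-83116765, + strand) and Ccl17 (chr8:94810203-94810452, + strand). Capitals mark matches, on either strand, to the NF-κB consensus, to the AP-1 motif TGANTCA or to TATAAA.
Ccl12: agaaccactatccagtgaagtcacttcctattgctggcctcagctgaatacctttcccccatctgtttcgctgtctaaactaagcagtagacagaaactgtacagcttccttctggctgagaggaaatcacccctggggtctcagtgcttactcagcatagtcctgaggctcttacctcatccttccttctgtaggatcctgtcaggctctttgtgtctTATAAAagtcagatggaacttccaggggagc
Ccl8: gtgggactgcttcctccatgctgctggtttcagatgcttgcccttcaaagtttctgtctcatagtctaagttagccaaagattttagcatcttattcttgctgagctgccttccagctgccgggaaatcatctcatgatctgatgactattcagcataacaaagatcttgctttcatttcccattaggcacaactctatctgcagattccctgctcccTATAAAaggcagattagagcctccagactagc
Ccl9: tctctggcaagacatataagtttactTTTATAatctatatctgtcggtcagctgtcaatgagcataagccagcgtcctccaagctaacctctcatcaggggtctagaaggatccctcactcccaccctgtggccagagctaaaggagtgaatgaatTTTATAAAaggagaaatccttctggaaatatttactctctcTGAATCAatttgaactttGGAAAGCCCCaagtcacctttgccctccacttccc
Ccl20: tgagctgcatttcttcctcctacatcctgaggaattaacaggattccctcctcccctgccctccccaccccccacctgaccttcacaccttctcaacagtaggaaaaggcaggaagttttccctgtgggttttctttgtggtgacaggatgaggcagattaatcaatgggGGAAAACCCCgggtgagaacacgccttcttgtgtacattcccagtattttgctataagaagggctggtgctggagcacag
Ccl17: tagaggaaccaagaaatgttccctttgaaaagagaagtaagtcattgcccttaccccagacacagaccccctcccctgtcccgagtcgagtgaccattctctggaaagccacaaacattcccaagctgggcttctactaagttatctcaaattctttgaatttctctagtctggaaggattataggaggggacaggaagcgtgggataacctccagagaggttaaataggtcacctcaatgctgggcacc

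Ccl12 and Ccl8, neighbours in the cluster, each held TATAAA, at 31 to 26 and at 32 to 27 bases before the start. Ccl20 held an NF-κB match on the opposite strand at 80 to 71 bases, and Ccl9 one at 35 to 26 bases. Ccl9 also held TGANTCA at 53 to 47 bases, a motif that reads the same on both strands, and 3 TATAAA matches of which 2 overlap each other. Ccl17 had no match to the 3 motifs in this window, and of the 3 entries of Ccl27a only 1 had any, a TGANTCA at 77 to 71 bases. Over all 32851 promoters of the table, the same 250 bases held the NF-κB consensus in 7.25%, TGANTCA in 6.75% and TATAAA in 12.4%. The 3′ ends differ as well: counted in the longest annotated 3′ end after the stop codon, the letters ATTTA, the core of AU-rich elements that bind mRNA decay factors, occurred 5 times in the 167 bases of Ccl12, 9 times in the 1050 bases of Ccl20, 5 times in the 644 bases of Ccl11, 5 times in the 2465 bases of Ccl9, 2 times in the 435 bases of Ccl7 and once in the 275 bases of Ccl2. Ccl8, Ccl5, Ccl17 and Ccl27a had none. The median over 20609 genes was 1.28 per kb, against 29.9 for Ccl12, 8.57 for Ccl20, 7.76 for Ccl11, 4.6 for Ccl7, 3.64 for Ccl2 and 2.03 for Ccl9.

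IL-1b and TNFa each raised 6 of the 10 chemokines in LacZ cultures (11.1% and 10.9% of all genes). With the same ligands 6 of the 10 were lower in iCre than in LacZ cultures (8.98% and 12.6% of all genes). With IL-1b, Ccl27a was higher in iCre (7.14% of all genes). With a GC correction, Ccl9, Ccl20 and Ccl27a no longer passed in that comparison. Ccl2 and Ccl7 rose with IL-1b, TNFa and bFGF in both cultures, while TGFb raised Ccl17 alone among the 10. Calls are at a Benjamini-Hochberg adjusted p of at most 0.05 in edgeR's quasi-likelihood test over 25210 genes. In LacZ cultures bFGF raised 2 members (Ccl2, Ccl7) and lowered 1 (Ccl27a), where 7.00% of all genes rose and 4.64% fell. TGFb raised 1 (Ccl17) and lowered 1 (Ccl27a), against 17.5% and 19.3% of all genes, so neither share stood above the background. IL-1b raised Ccl2, Ccl7, Ccl8, Ccl11, Ccl5 and Ccl20 and lowered Ccl27a, against 11.1% of all genes higher and 9.55% lower. TNFa raised Ccl2, Ccl7, Ccl8, Ccl5, Ccl9 and Ccl20 and lowered Ccl27a, against 10.9% and 10.4%.

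The same ligands were compared with no ligand in iCre cultures. With bFGF 3 members rose (Ccl2, Ccl7, Ccl9) and none fell, where 1.79% of all genes rose and 0.635% fell. TGFb raised Ccl17 and lowered Ccl11 and Ccl27a, against 18.6% higher and 18.8% lower. IL-1b raised 4 (Ccl2, Ccl7, Ccl8, Ccl9), against 9.38% higher and 6.88% lower. TNFa raised 5 (Ccl2, Ccl7, Ccl8, Ccl5, Ccl9), against 14.7% and 12.3%. The ligand comparisons within a culture type share the 4 libraries without ligand, so their values are given side by side and not as separate support. In the plot of ligand responses, the cluster genes above the dashed line and the other members below it can be read against each other.

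**Figure D1:**
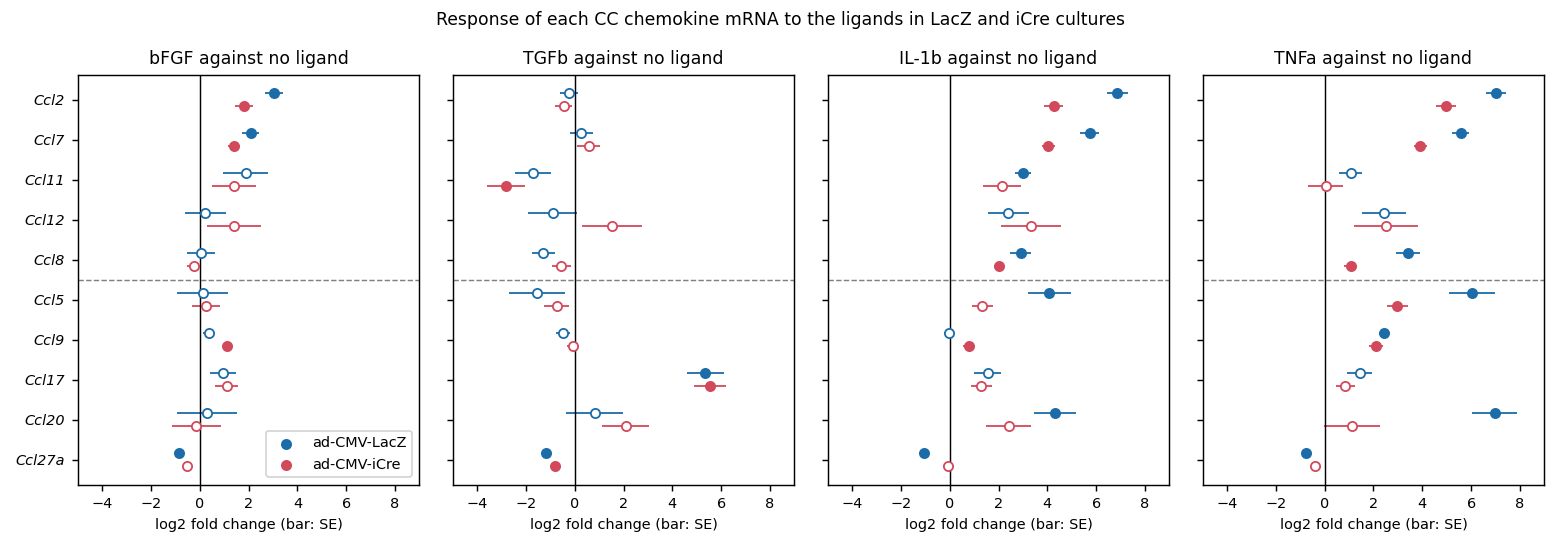
Log2 fold change of each chemokine (rows) with each ligand against no ligand, in LacZ (blue) and iCre (red) cultures, 4 libraries per group. Horizontal bars are standard errors, filled points passed an adjusted p of at most 0.05, and the dashed line parts the 5 chromosome 11 cluster genes (above) from the other 5. With IL-1b and TNFa the largest LacZ values are those of Ccl2 (6.87 and 7.01), and TGFb moves Ccl17 by 5.35 in LacZ and 5.53 in iCre.

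Between iCre and LacZ, the members differed mainly under IL-1b and TNFa. With IL-1b, Ccl2, Ccl7, Ccl8, Ccl5, Ccl9 and Ccl20 were lower and Ccl27a was higher in iCre, against 8.98% of all genes lower and 7.14% higher. With TNFa the same 6 were lower and none higher, against 12.6% and 14.8%. With TGFb only Ccl9 was lower, against 5.87% lower and 2.51% higher. Without ligand no member passed in edgeR, where 0.0278% of all genes were higher and 0.0476% lower. At an unadjusted p under 0.05, 2 members were lower (7.59% of all genes), and DESeq2 called 1, Ccl9 (5.43%). With bFGF none passed in edgeR, as for all genes (0% higher), while 3 members were lower at an unadjusted p under 0.05 (5.28% of all genes) and DESeq2 called 0 (1.95%). The interaction term asks whether the ligand response itself differed between the cultures. For IL-1b it was negative for Ccl2 and Ccl7 and positive for Ccl27a, against 4.95% of all genes negative and 2.76% positive. For TNFa it was negative for Ccl2, Ccl7, Ccl8, Ccl5 and Ccl20, against 7.70% negative and 8.38% positive. For TGFb no member passed in edgeR, against 0.893% positive and 3.62% negative, with 0 at an unadjusted p under 0.05 (15.2% of all genes) and 0 in DESeq2 (8.73%). For bFGF none passed, as for all genes (0%), with 2 at an unadjusted p under 0.05 (3.03%) and 0 in DESeq2 (0%).

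**Figure D2:**
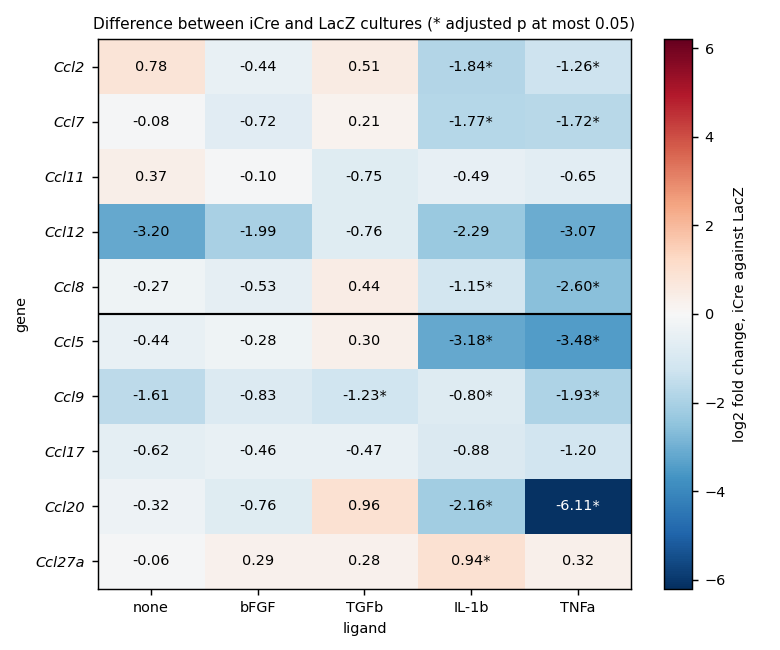
Log2 fold change of iCre against LacZ cultures for each chemokine (rows) under each ligand (columns), 4 libraries per group. Blue is lower in iCre, red is higher, asterisks mark an adjusted p of at most 0.05, and the line parts the cluster from the other members. The deepest value is Ccl20 with TNFa (-6.11), followed by Ccl5 with TNFa (-3.48), and Ccl27a with IL-1b (0.94) is the one red cell that passed.

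The replicate numbers paired the libraries, so each comparison was also fitted with the number as a block. No call was lost and 36 were gained. The blocked fit calls far more genes in all. On data simulated without a replicate effect it made more false calls than its threshold allows. Those simulated data lack the pairing found here, so they cannot show how many of the added calls are false. Calls made by the blocked fit alone are therefore kept apart from the main calls. Without ligand it put Ccl2 higher and Ccl12 and Ccl9 lower in iCre (3 members, 14.5% of all genes in either direction), with bFGF Ccl2, Ccl7 and Ccl9 lower (3, 13.9%), with TGFb Ccl2 higher and Ccl9 lower (2, 20.8%). With IL-1b all 10 members differed (background 29.5%) and with TNFa 8 did, Ccl12 and Ccl17 being added (32.2%). In LacZ cultures the blocked counts were 5 members for bFGF (27.3%, with Ccl11 and Ccl17 added), 5 for TGFb (42.0%, with Ccl8, Ccl11 and Ccl5 lower), 9 for IL-1b (33.5%, with Ccl12 and Ccl17) and 10 for TNFa (35.5%, with Ccl11, Ccl12 and Ccl17). In iCre cultures they were 4 for bFGF (16.7%, with Ccl11), 4 for TGFb (41.5%, with Ccl5 lower) and 9 for IL-1b (33.8%, with Ccl11, Ccl12, Ccl5, Ccl17 and Ccl20). The interaction with IL-1b had 5 (16.9%, with Ccl8 and Ccl5 negative), and the direct comparisons of IL-1b with TNFa had 5 in LacZ (24.2%) and 5 in iCre (17.1%).

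**Figure D3:**
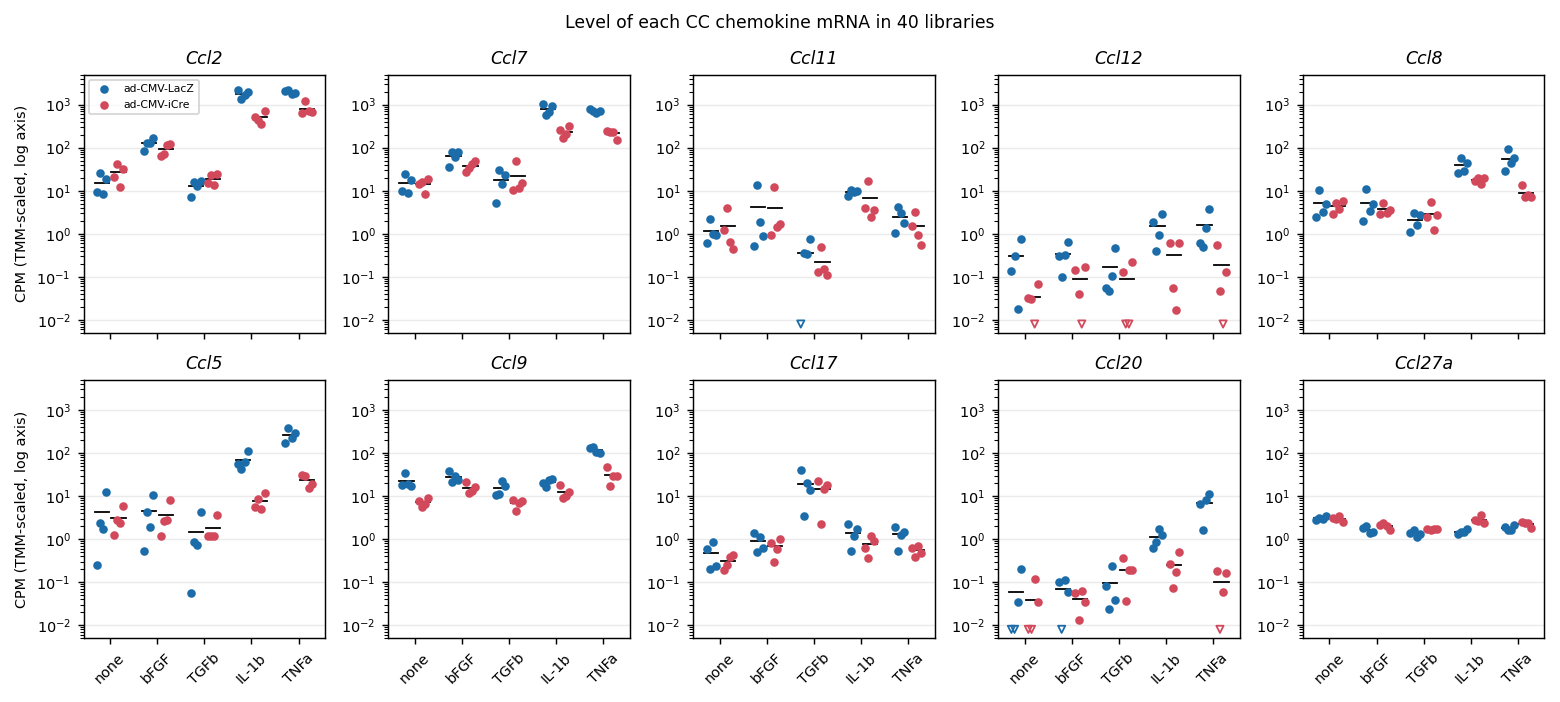
CPM of each chemokine in all 40 libraries on a log axis, by ligand (columns) and virus (LacZ blue, iCre red). Each point is a library in replicate order, bars are group means of 4 libraries, and open triangles at the bottom stand for libraries with 0 counts. Ccl2 and Ccl7 are above the other members with IL-1b and TNFa, Ccl17 stands out with TGFb, and Ccl12 and Ccl20 stay near or below 1 CPM in most libraries.

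Ccl2 (MCP-1), the main CCR2 ligand, was the most abundant member per length with IL-1b or TNFa. In LacZ cultures without ligand it was at 9.22, 25.7, 8.25 and 18.5 CPM in replicates 1 to 4, with IL-1b at 2209, 1317, 1634 and 1945 CPM, and with TNFa at 2069, 2230.3, 1747 and 1831 CPM. The groups with and without these ligands did not overlap, a rise of 117-fold with IL-1b (log2 fold change 6.87, SE 0.42, adjusted p = 6.64e-06) and of 129-fold with TNFa (log2 fold change 7.01, SE 0.41, adjusted p = 6.28e-06). In iCre cultures the values were 20.9, 41.4, 12 and 31.9 CPM without ligand, 518, 441, 353 and 703 CPM with IL-1b and 641, 1207, 709 and 677 CPM with TNFa. Ccl2 thus still rose 19.2-fold and 31.2-fold there, but every iCre library with either ligand was below every LacZ library with it, at 28% of the LacZ level with IL-1b (log2 fold change -1.84, SE 0.23, adjusted p = 0.00065) and 41.6% with TNFa (log2 fold change -1.26, SE 0.21, adjusted p = 0.00193). The response itself was lower in iCre, with an interaction of -2.61 on the log2 scale with IL-1b (SE 0.53, adjusted p = 0.00563) and -2.05 with TNFa (SE 0.53, adjusted p = 0.0134). Without replicate 1, the only replicate from the lower range of library numbers, these interactions had adjusted p values of 0.0655 and 0.0714, and without replicate 4 the second had 0.106. bFGF raised Ccl2 to 83.4, 129.9, 126 and 164 CPM in LacZ (8.31-fold, log2 fold change 3.05, SE 0.37, adjusted p = 0.00147) and to 64.5, 71.4, 116 and 120.4 CPM in iCre (3.53-fold, adjusted p = 0.0355), the latter with adjusted p values of 0.166, 0.202 and 0.205 without replicate 1, 3 or 4. With TGFb the LacZ mean was 13.1 CPM and the iCre mean 19.1 CPM (adjusted p = 0.683 and 0.332). The gene Gm17268 spans Ccl2 on the opposite strand and had 0 counts.

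Ccl7 (MCP-3), which also binds CCR2 and lies 10.1 kb from Ccl2, moved with the same ligands as Ccl2, at a lower mean CPM per kb than Ccl2 with IL-1b, TNFa and bFGF and at a higher one with TGFb. The LacZ libraries held 9.8, 25.1, 8.77 and 17.5 CPM without ligand, 1027, 586, 676 and 911 CPM with IL-1b and 804, 717, 642 and 718 CPM with TNFa. The iCre libraries held 14.4, 16.3, 8.59 and 19 CPM, 258, 171, 203 and 315 CPM and 248, 234, 229 and 153 CPM in the same order. All IL-1b and TNFa libraries were above all libraries without ligand of the same culture, and all iCre libraries below all LacZ libraries with the ligand. The rise was 53.1-fold with IL-1b and 47.4-fold with TNFa in LacZ (adjusted p = 9.71e-06 and 8.69e-06), against 16.5-fold and 15.2-fold in iCre (adjusted p = 4.92e-05 and 8.97e-05). Ccl7 in iCre was at 29.2% of the LacZ level with IL-1b (log2 fold change -1.77, SE 0.23, adjusted p = 0.000754) and 30.4% with TNFa (log2 fold change -1.72, SE 0.16, adjusted p = 0.000154). Its interactions were -1.69 (SE 0.45, adjusted p = 0.0269) and -1.65 (SE 0.41, adjusted p = 0.0112). The first had adjusted p values of 0.201, 0.0835 and 0.118 without replicate 1, 3 or 4, 0.0842 with a GC correction and 0.075 with all 40 libraries in a single fit, and the second 0.0563 and 0.106 without replicate 1 or 4. With bFGF, Ccl7 reached 63.4 ± 20.3 CPM in LacZ (4.23-fold, adjusted p = 0.0065, and 0.0614 and 0.0635 without replicate 3 or 4) and 38.5 ± 9.94 CPM in iCre (2.66-fold, adjusted p = 0.0261, and 0.135, 0.197 and 0.115 without replicate 1, 3 or 4). With TGFb its means were 18.2 ± 10.8 CPM and 21.5 ± 18.5 CPM, neither past the threshold against no ligand.

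Ccl8 (MCP-2), at the far end of the cluster 79.6 kb from the Ccl2 start, rose less than Ccl2 and Ccl7 and stood apart by cytokine in iCre cultures. LacZ libraries had it at 2.39, 10.5, 3.23 and 4.88 CPM without ligand, 25.7, 56.7, 28.9 and 43.6 CPM with IL-1b and 29.2, 90.8, 43 and 56.7 CPM with TNFa, with no overlap, a rise of 7.51-fold (log2 fold change 2.91, SE 0.44, adjusted p = 0.00135) and 10.5-fold (log2 fold change 3.40, SE 0.49, adjusted p = 0.00111). In iCre the same groups were at 2.95, 5.11, 3.67 and 5.77 CPM, 16.9, 19.4, 14.2 and 19.8 CPM and 13.6, 7.21, 7.82 and 6.97 CPM. The iCre response was 4.07-fold with IL-1b (adjusted p = 0.000405) and 2.08-fold with TNFa (adjusted p = 0.0193, and 0.0614, 0.0996 and 0.079 without replicate 1, without replicate 3 or in a single fit of 40 libraries). Against LacZ, Ccl8 was at 45% with IL-1b (adjusted p = 0.00652, and 0.0628 in the single fit) and 16.5% with TNFa (log2 fold change -2.60, SE 0.35, adjusted p = 0.000717). The interaction was -2.35 with TNFa (SE 0.59, adjusted p = 0.0126, and 0.0987 and 0.148 without replicate 3 or 4) and -0.89 with IL-1b (SE 0.52, adjusted p = 0.371, and 0.0297 with the block). The 4 iCre libraries with IL-1b lay above the 4 with TNFa, by 0.97 on the log2 scale (adjusted p = 0.061, and 0.000821 with the block). With TGFb it was at 2.12 CPM in LacZ (adjusted p = 0.054, and 0.000488 with the block), and bFGF gave 5.32 CPM.

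Ccl12 (MCP-5), the mouse monocyte chemoattractant beside Ccl8, was close to the counting limit. The largest value in any library was 3.83 CPM, and 5 of 40 libraries, all iCre, had 0 counts. The LacZ values were 0.134, 0.307, 0.0177 and 0.755 CPM without ligand, 1.85, 0.407, 0.925 and 2.89 CPM with IL-1b and 0.61, 0.489, 1.38 and 3.83 CPM with TNFa, in overlapping groups (adjusted p = 0.0714 and 0.0894). The same differences had adjusted p = 1.18e-05 and 0.000305 with the replicate block, and replicate 4 was the highest library in 9 of the 10 groups. In iCre, counts per library ranged from 0 to 32. With TNFa it was at 0.184 CPM against 1.58 CPM in LacZ (log2 fold change -3.07, SE 1.03, adjusted p = 0.0517, and 0.0271 with the block). Over the 13 alternative fits this log2 fold change ran from -5.11 to -2.04, with adjusted p values from 0.00927 to 0.293, and 7 fits passed. Among the 10 members, Ccl12 followed the macrophage marker sum most closely over the 40 libraries once group means were removed (Pearson r 0.84, the others from -0.43 to 0.52), and both had their highest mean deviation in replicate 4. The part of macrophage RNA in the Ccl12 values was not tested.

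Ccl11 (eotaxin), the eosinophil attractant of the cluster, rose with IL-1b in LacZ cultures, and with TNFa did not pass the threshold. In LacZ it was at 0.625, 2.2, 0.976 and 0.959 CPM without ligand, 7.71, 10.6, 9.18 and 10.1 CPM with IL-1b and 1.05, 4.12, 2.96 and 1.78 CPM with TNFa. The IL-1b libraries lay above both other groups, 7.99-fold above no ligand (log2 fold change 2.999, SE 0.33, adjusted p = 0.00025) and 3.79-fold above TNFa (adjusted p = 0.0055, and 0.0568 without replicate 4 and 0.187 in a single fit of 40 libraries), while TNFa against no ligand had an adjusted p of 0.152 (0.00025 with the block). In iCre, IL-1b gave 4.02, 17.3, 2.42 and 3.56 CPM against 1.21, 3.89, 0.638 and 0.452 CPM without ligand (adjusted p = 0.093, and log2 2.14, SE 0.17 with the block). Replicate 2 was the highest library in 9 of the 10 groups. With bFGF that replicate held 13.8 CPM in LacZ and 11.9 CPM in iCre against 0.528 to 1.93 CPM and 0.944 to 1.66 CPM in the other 3. TGFb lowered it in iCre cultures. The TGFb libraries held 0, 0.353, 0.347 and 0.758 CPM in LacZ (adjusted p = 0.0991, and 0.017 with the block) and 0.132, 0.481, 0.15 and 0.111 CPM in iCre (log2 fold change -2.81, SE 0.77, adjusted p = 0.0143, and 0.0598 without replicate 1). iCre and LacZ levels did not differ detectably under IL-1b (6.81 and 9.4 CPM, adjusted p = 0.578), except with the replicate block (log2 -0.90, adjusted p = 0.0172).

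Set out by position, the IL-1b and TNFa responses of the cluster differed in size from gene to gene. In LacZ they fell from Ccl2 (6.87 and 7.01 on the log2 scale) over Ccl7 (5.73 and 5.57) to Ccl11 (2.999 and 1.06), and stood at 2.40 and 2.43 for Ccl12 and 2.91 and 3.40 for Ccl8. The median log2 difference over the 5 cluster genes was 2.999 with IL-1b and 3.40 with TNFa, against 1.56 and 2.44 for the 5 other members. Between iCre and LacZ the medians were -1.77 and -1.72 for the cluster and -0.88 and -1.93 for the others. Of the 5 cluster genes 3 were lower in iCre with each cytokine, as were 3 of the 5 others, against 8.98% of all genes with IL-1b and 12.6% with TNFa. With a GC correction, Ccl9 and Ccl20 no longer passed with IL-1b, while the 3 cluster genes and Ccl5 still did.

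**Figure D4:**
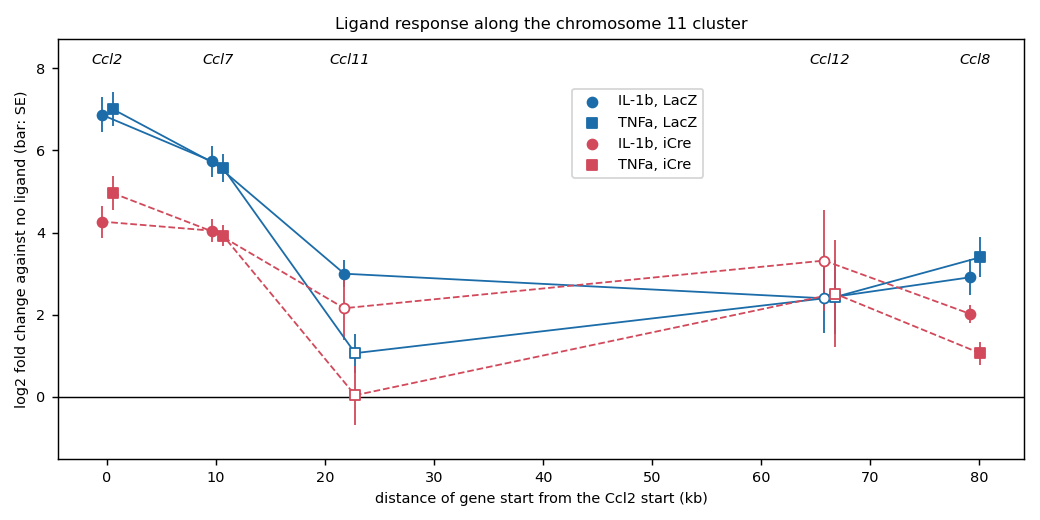
Log2 fold change against no ligand of the 5 cluster genes by distance of each gene start from the Ccl2 start in kb, for IL-1b (circles) and TNFa (squares) in LacZ (blue) and iCre (red) cultures. Vertical bars are standard errors, filled symbols passed an adjusted p of at most 0.05, and lines only join the points of a comparison. Ccl2 and Ccl7, 10.1 kb apart, have the 2 highest values in every comparison, and Ccl11 with TNFa is near 0 in iCre (0.04).

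Per length, the cluster held most of the members' mRNA in the group mean, except in LacZ with TGFb. Summed over the 10 members, the level in LacZ was 58.4 ± 28.1 CPM per kb without ligand, 221 ± 61.0 with bFGF, 84.1 ± 11.9 with TGFb, 2729 ± 593 with IL-1b and 3067 ± 329 with TNFa. In iCre it was 59.0 ± 20.0, 152 ± 37.8, 82.7 ± 15.8, 794 ± 209 and 1036 ± 254 in the same order. The cluster made up 75.0% ± 6.07 of this sum in LacZ without ligand and 97.0% ± 0.959 with IL-1b. With TNFa it made up 89.5% ± 2.44 in LacZ and 96.3% ± 1.11 in iCre. With TGFb it was 49.0% ± 28.3 in LacZ and 57.7% ± 23.6 in iCre, where Ccl17 took much of the rest. In CPM per kb with IL-1b in LacZ the order was Ccl2 (1561), Ccl7 (999), Ccl8 (75.8), Ccl5 (71.5), Ccl11 (8.69), Ccl9 (7.02), Ccl12 (2.83), Ccl17 (2.71), Ccl20 (0.777) and Ccl27a (0.619). Neighbours in this order overlapped in their libraries' ranges except for Ccl7 and Ccl8, and Ccl5 and Ccl11, so by range the order fell into 3 steps. Within each single library, however, Ccl2 was above Ccl7 and Ccl11 was above Ccl9. With TNFa in LacZ, the ranges of Ccl5 (278) and Ccl8 (108) overlapped, although Ccl5 was above Ccl8 in each library. Ccl9 (38.9) came next, clear of both neighbours. With TGFb, Ccl17 had the highest mean in both cultures (37.8 in LacZ and 27.9 in iCre), in ranges that overlapped those of Ccl7 (22.7 and 26.9), and without ligand in LacZ Ccl7 (19.1) was above Ccl2 (13.6) in the mean.

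Ccl5 (RANTES), the T cell and monocyte attractant, was the member with the largest iCre difference at a level well above the counting limit. Its LacZ values were 0.246, 2.31, 1.69 and 12.4 CPM without ligand, 56.8, 41.5, 62.2 and 114 CPM with IL-1b and 168, 388, 222 and 289.6 CPM with TNFa. Neither cytokine group overlapped the group without ligand, and the rise was 17-fold with IL-1b (log2 fold change 4.09, SE 0.87, adjusted p = 0.00813, and 0.064 without replicate 3) and 66-fold with TNFa (log2 fold change 6.04, SE 0.93, adjusted p = 0.00158). Without replicate 4, whose basal value was the highest, these log2 fold changes were 5.25 and 7.52. In iCre it was at 1.28, 2.85, 2.31 and 5.87 CPM without ligand, 5.65, 8.38, 5.01 and 11.7 CPM with IL-1b and 30.2, 28.9, 15.7 and 19.6 CPM with TNFa. The lowest LacZ library was above the highest iCre library with each cytokine, and iCre held 11% of the LacZ level with IL-1b (log2 fold change -3.18, SE 0.35, adjusted p = 0.000313) and 8.98% with TNFa (log2 fold change -3.48, SE 0.30, adjusted p = 0.000106). TNFa still raised it 7.86-fold in iCre (adjusted p = 0.000845), and IL-1b 2.53-fold (adjusted p = 0.0647, and 7.94e-17 with the block). TNFa gave more Ccl5 than IL-1b, with IL-1b at 25.7% of TNFa in LacZ (adjusted p = 0.00375, and 0.0968 in a single fit of 40 libraries) and 32.4% in iCre (adjusted p = 0.0236, and 0.079, 0.063 and 0.132 without replicate 1, 2 or 3, and 0.196 in the single fit). The interaction was -3.07 with TNFa (SE 0.998, adjusted p = 0.0474, 0.136 and 0.24 without replicate 2 or 3, and a log2 value of -3.97 without replicate 4) and -2.74 with IL-1b (SE 1.03, adjusted p = 0.132, and 0.000629 with the block). The basal level spread widely, from 0.246 to 12.4 CPM in LacZ, and replicate 4 was the highest library in 8 of the 10 groups. TGFb groups were at 1.46 and 1.8 CPM and bFGF groups at 4.41 and 3.66 CPM in LacZ and iCre, none past the threshold without the block.

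Ccl9, a CCR1 ligand that attracts myeloid cells, rose with TNFa in LacZ cultures, did not pass the threshold with IL-1b there, and its iCre libraries without ligand all lay below the LacZ ones. In LacZ it was at 17.9, 34.2, 18.8 and 16.7 CPM without ligand, 20.2, 16, 23.8 and 25.4 CPM with IL-1b and 131, 138, 103 and 101 CPM with TNFa. Only the TNFa libraries stood clear of the rest, at 5.42-fold over no ligand (log2 fold change 2.44, SE 0.23, adjusted p = 9.09e-05), and IL-1b was at 18.1% of the TNFa level (log2 fold change -2.47, SE 0.16, adjusted p = 1.45e-05). IL-1b against no ligand was -0.02 on the log2 scale (adjusted p = 0.974), and without replicate 2, the highest of the libraries without ligand, it was 0.38 (adjusted p = 0.0279). In iCre the values were 7.49, 5.45, 6.66 and 9.25 CPM without ligand, 18.1, 9.11, 9.79 and 12.7 CPM with IL-1b and 46.1, 17.2, 28.9 and 29.8 CPM with TNFa. TNFa raised it 4.33-fold there (adjusted p = 0.000647), bFGF 2.19-fold (adjusted p = 0.0353, and 0.19, 0.236 and 0.142 without replicate 1, 3 or 4) and IL-1b 1.75-fold (adjusted p = 0.0493, and 0.207, 0.131 and 0.0906 without replicate 1, 3 or 4, 0.0576 with RLE normalization, 0.0521 without a filter and 0.0532 over protein-coding genes). Every library of iCre without ligand was below every LacZ one (log2 fold change -1.61, SE 0.25, adjusted p = 0.0573, and 3.31e-05 with the block). The iCre level was 42.7% of LacZ with TGFb (adjusted p = 0.0202, 0.194 with a GC correction, and 0.164 and 0.131 without replicate 3 or 4), 57.5% with IL-1b (adjusted p = 0.0367, 0.296 with a GC correction, and 0.222 and 0.162 without replicate 3 or 4) and 26.2% with TNFa (log2 fold change -1.93, SE 0.26, adjusted p = 0.00067). No interaction passed for Ccl9 (adjusted p = 0.216 with IL-1b and 0.638 with TNFa). The 10 macrophage markers had a median log2 difference of iCre against LacZ of -0.89 without ligand and -0.80 with TNFa, and edgeR called none lower in either (4 lower without ligand at an unadjusted p under 0.05, 0 with TNFa, and 1 and 0 in DESeq2). The 1 marker that passed with TNFa, Cd68, was higher in iCre (log2 1.09, adjusted p = 0.00672). Their part in the Ccl9 difference was not tested.

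Ccl17 (TARC), the CCR4 ligand, rose with TGFb in both cultures. In LacZ it was at 0.603, 0.198, 0.834 and 0.232 CPM without ligand and 40.3, 3.46, 19.9 and 14.1 CPM with TGFb, and in iCre at 0.196, 0.245, 0.379 and 0.417 CPM and 22.6, 2.26, 14.9 and 17.6 CPM. The groups did not overlap in either culture, and the rise was 40.9-fold in LacZ (log2 fold change 5.35, SE 0.76, adjusted p = 0.000338) and 46.1-fold in iCre (log2 fold change 5.53, SE 0.66, adjusted p = 8.33e-05). The interaction was 0.15 with an SE of 1.01, which is wide, and the TGFb levels of iCre and LacZ overlapped (adjusted p = 0.775). Replicate 2 had the lowest TGFb value in both cultures, 3.46 and 2.26 CPM. With the other ligands the group means of Ccl17 lay between 0.546 and 1.39 CPM. In LacZ, IL-1b gave 2.22, 0.516, 1.17 and 1.67 CPM (adjusted p = 0.0751, and 0.000168 with the block) and TNFa 1.87, 0.524, 1.27 and 1.48 CPM (adjusted p = 0.0875, and 0.00116 with the block). With TNFa the iCre level was 43.4% of LacZ, at an adjusted p of 0.0513 (0.0212 with the block).

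Ccl20 (MIP-3α), the CCR6 ligand, went from a handful of counts to a clear signal with TNFa in LacZ cultures. Its LacZ libraries stood at 0, 0, 0.0355 and 0.203 CPM without ligand (0, 0, 2 and 7 counts), 0.629, 0.869, 1.67 and 1.25 CPM with IL-1b and 6.58, 1.64, 8.21 and 11 CPM with TNFa. Both cytokine groups were clear of the group without ligand, with fitted log2 fold changes of 4.31 (SE 0.85, adjusted p = 0.00555, and 0.0654 without replicate 3) and 6.97 (SE 0.91, adjusted p = 0.000656), whose size rests on the few basal counts (6.01 and 8.38 without replicate 4). In iCre it was at 0, 0, 0.12 and 0.0348 CPM without ligand, 0.262, 0.0727, 0.172 and 0.508 CPM with IL-1b and 0.178, 0, 0.0584 and 0.162 CPM with TNFa, with 7, 0, 3 and 5 counts in the last group. In iCre the TNFa libraries overlapped those without ligand, with 2 of 4 above them (adjusted p = 0.512), and the iCre level with TNFa was 1.45% of LacZ (SE of the log2 fold change 0.79, adjusted p = 0.00055), with no overlap. With IL-1b it was 22.4% of LacZ (adjusted p = 0.0216, 0.115 with a GC correction, and 0.0517 and 0.17 without replicate 1 or 3). The TNFa interaction was -5.95 (SE 1.78, adjusted p = 0.0309, 0.0582 with a GC correction, -3.69 at 0.684 without replicate 3, and -7.76 at 0.0443 without replicate 4). IL-1b gave 16.1% of the TNFa level in LacZ (adjusted p = 0.00903, and 0.0527, 0.0554 and 0.0714 without replicate 1, 3 or 4), in ranges that overlapped.

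Ccl27a, the CCR10 ligand, was lower with every ligand in LacZ. In LacZ it was at 2.72, 3.14, 2.96 and 3.49 CPM without ligand, 1.41, 1.6, 1.15 and 1.29 CPM with TGFb and 1.32, 1.44, 1.42 and 1.7 CPM with IL-1b. With bFGF it was at 1.78, 2.01, 1.41 and 1.47 CPM and with TNFa at 1.9, 1.64, 1.6 and 2.12 CPM. No ligand group overlapped the group without ligand, and levels were 44.9% of it with TGFb (log2 fold change -1.16, SE 0.21, adjusted p = 0.00134), 48.3% with IL-1b (log2 fold change -1.05, SE 0.19, adjusted p = 0.0034), 55% with bFGF (adjusted p = 0.0255, and 0.0781, 0.178 and 0.172 without replicate 1, 3 or 4) and 59.1% with TNFa (adjusted p = 0.0145, and 0.103 and 0.0686 without replicate 3 or 4). In iCre it was at 3.01, 2.97, 3.47 and 2.47 CPM without ligand, 1.72, 1.67, 1.68 and 1.69 CPM with TGFb and 2.73, 2.58, 3.73 and 2.33 CPM with IL-1b. TGFb lowered it there to 57.5% (adjusted p = 0.00988, and 0.0509 and 0.0874 without replicate 1 or 3), and the IL-1b libraries overlapped those without ligand (adjusted p = 0.921). With IL-1b all 4 iCre libraries were above all 4 LacZ libraries (log2 fold change 0.94, SE 0.22, adjusted p = 0.0167, 0.0789 with a GC correction, and 0.0754 and 0.141 without replicate 1 or 3). The IL-1b interaction was 0.99 (SE 0.25, adjusted p = 0.024, 0.0919 with a GC correction, and 0.113, 0.0863, 0.15 and 0.0957 without replicate 1, 2, 3 or 4). Ccl27a has the highest GC content of the members (58.0%), and the slope of CPM on GC content with IL-1b was 0.21 to 0.30 in iCre against -0.12 to -0.08 in LacZ on the log2 scale per 10% GC. Its part in the difference beyond these corrected values was not tested.

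IL-1b and TNFa were compared directly within each culture. In LacZ, Ccl11 was higher with IL-1b and Ccl5, Ccl9 and Ccl20 were lower, where 4.84% of all genes were higher and 4.78% lower. Ccl2 and Ccl7 did not differ detectably, with log2 differences of -0.15 (SE 0.17) and 0.15 (SE 0.17). In iCre, Ccl5 alone was lower with IL-1b, against 1.69% of all genes lower and 0.964% higher. With the replicate block, Ccl2 (adjusted p = 0.0184) and Ccl9 (2.73e-06) were also lower with IL-1b in iCre, and Ccl8 (0.000821) and Ccl11 (3.1e-05) higher. In LacZ the block added Ccl8 as lower (9.37e-06).

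Replicates of a number deviated together from their group means, and the members did so in different ways. Ccl11 and Ccl8 were highest in replicate 2 in 9 and 7 of the 10 groups, Ccl12 and Ccl5 in replicate 4 in 9 and 8 groups. Ccl17 and Ccl20 were below the group mean in replicate 2 in all 10 groups, and Ccl5 was below it in replicate 1 in 9. Ccl27a hardly varied by number, with mean deviations from -0.08 to 0.06 on the log2 scale. The macrophage marker sum was above the group mean in replicate 4 in 10 groups and below it in replicates 2 and 3 in 10. In replicate 2, therefore, Ccl11 and Ccl8 were high while the marker sum was low, and in replicate 4 Ccl12, Ccl5 and the marker sum were high together.

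**Figure D5:**
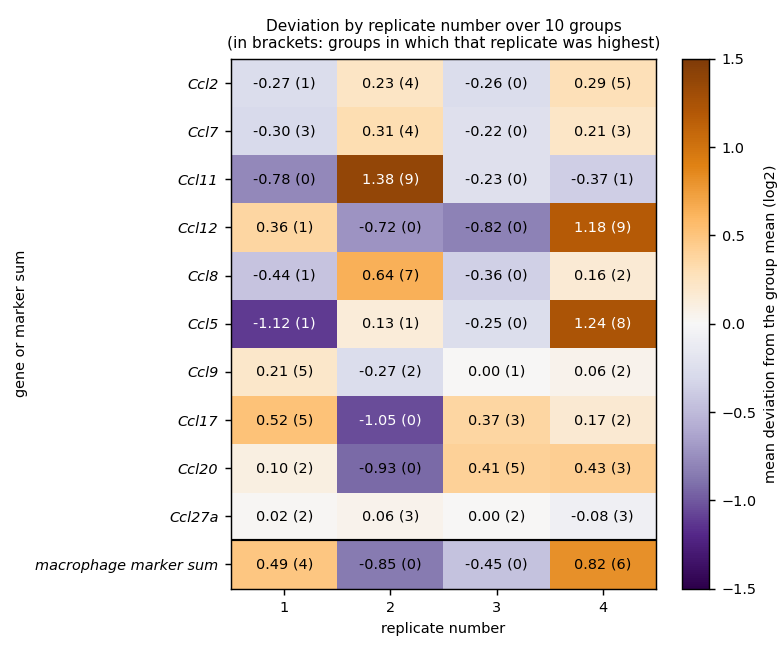
Mean deviation from the group mean of log2 CPM (edgeR, prior count 2) for each chemokine and of log2 of the summed CPM for the macrophage markers (rows) by replicate number (columns), averaged over 10 groups. Orange is above and purple below the group mean, and brackets give the number of groups in which that replicate was the highest of 4. Ccl11 in replicate 2 (1.38), Ccl5 in replicate 4 (1.24) and Ccl12 in replicate 4 (1.18) have the largest positive values.

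Markers of mural cells (the pericytes and smooth muscle cells around vessels), which the fibroblast cultures also held, moved with the virus and with some ligands. Of the 3, 2 were higher in iCre with IL-1b (7.14% of all genes) and 3 with TNFa (14.8%), with median log2 differences of 0.88 and 2.35. Outside the cytokine groups the 3 markers did not move alike. Cspg4 was also higher in iCre with TGFb (486 ± 128 against 254 ± 33.9 CPM, log2 0.91, adjusted p = 0.0175), and without ligand its iCre libraries (29.8 to 43.4 CPM) lay above its LacZ libraries (15.0 to 22.8 CPM) at an adjusted p of 0.0848. Kcnj8 was at 3.06 CPM in iCre against 4.11 CPM in LacZ without ligand, 2.68 against 3.69 CPM with bFGF and 1.004 against 0.994 CPM with TGFb, and Rgs5 at 662 against 327 CPM without ligand, none past the threshold. Against no ligand in LacZ, Kcnj8 fell with TNFa (log2 -4.06), TGFb (-2.02) and IL-1b (-1.08). Cspg4 rose there with TGFb (3.78) and fell with IL-1b (-0.75), and Rgs5 passed with no ligand treatment. Between iCre and LacZ, 3 of 8 fibroblast markers were lower in iCre with IL-1b (8.98% of all genes). With TNFa 5 of 8 were lower and 1 was higher (12.6% and 14.8%). Of 3 cardiomyocyte markers 2 were tested, and Tnnt2, a troponin of the contractile filament, was higher in iCre with IL-1b (1.93 to 15.8 against 0.271 to 1.64 CPM, log2 3.11, adjusted p = 0.0199). Tnnt2 itself fell in LacZ from 49.1 CPM without ligand to 1.01 CPM with IL-1b (log2 -5.64, adjusted p = 0.000605). It also fell there with TNFa (-3.78) and TGFb (-2.76). In iCre its means were 27.8 CPM without ligand and 8.63 CPM with IL-1b (adjusted p = 0.169). In LacZ cultures the dendritic cell markers Itgax (0.351 CPM with IL-1b and 0.324 CPM with TNFa against 0.0673 CPM) and, with IL-1b, Flt3 (0.164 against 0.00887 CPM) were higher than without ligand. In iCre with IL-1b, Itgax was at 0.328 CPM, close to its LacZ mean. Flt3 was at 0.0375 CPM there, below its LacZ mean (log2 -2.04, adjusted p = 0.123). The part of these markers in the chemokine levels was not tested. Of the 10 macrophage markers the summed level with IL-1b was 52.4 to 185 CPM in LacZ and 35.9 to 119 CPM in iCre, and with TNFa 44.6 to 172 CPM and 36.5 to 124 CPM. These ranges overlapped, but by replicate number the sum was lower in iCre in 4 of 4 with IL-1b, 3 of 4 with TNFa, 4 of 4 without ligand, 4 of 4 with bFGF and 3 of 4 with TGFb. With IL-1b none of the 10 passed between iCre and LacZ in edgeR (1 higher and 3 lower at an unadjusted p under 0.05, and 2 lower in DESeq2). With TNFa 1 passed, Cd68, which was higher in iCre at 6.66 ± 0.969 CPM against 3.18 ± 1.00 CPM (log2 1.09, adjusted p = 0.00672). None of the 10 was at 0 in group mean in any group.

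Of the 14 other CC chemokines listed, 13 were in the table and 8 had enough counts to test. bFGF lowered 1 in LacZ (4.64% of all genes), Ccl19 (log2 -4.37). IL-1b raised 3 (11.1%), Ccl22, Ccl19 (log2 2.31) and Ccl3 (1.69), of which Ccl22 had a mean of 0.0536 CPM against 0 counts without ligand and 18 counts over all libraries. In LacZ, TNFa raised 2 (10.9%), Ccl19 (log2 4.38) and Ccl3 (1.67). Ccl19, which guides CCR7-bearing dendritic and T cells, went from 0.34 CPM without ligand to 1.72 CPM with IL-1b and 7.24 CPM with TNFa in LacZ, and was lower in iCre with IL-1b (log2 -2.20, adjusted p = 0.0466) and with TNFa (-5.81, adjusted p = 0.000696). TGFb lowered Ccl6 (-3.31), a CCR1 ligand of myeloid cells, and Ccl4 (-1.93) in LacZ, and Ccl6 (-2.11) and Ccl28 (-1.04) in iCre. It also lowered 19.3% of all genes in LacZ and 18.8% in iCre. The list's median log2 difference with IL-1b was 1.63 in LacZ and 1.32 in iCre. In iCre, however, none of the 8 passed with IL-1b, where 9.38% of all genes were higher. Ccl19 had the lowest adjusted p (0.054), and Ccl22, Ccl25 and Ccl28 had negative values. Both medians include Ccl1 and Ccl22, with 12 and 18 counts over all libraries.

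The receptors of these chemokines were scarce in the cultures. Of 11 CC receptor genes 8 were tested, and the largest group mean was 1.36 CPM, for Ccr1 in iCre with TNFa. Ccr2, the receptor of Ccl2, Ccl7 and Ccl12, had a group mean of at most 0.0255 CPM, and Ccr8 was at 0 in all 40 libraries. Ccr3, the eotaxin receptor, was higher in LacZ with IL-1b (0.281 against 0.062 CPM, log2 2.07) and TNFa (0.423 CPM, 2.64) and lower in iCre than in LacZ with both (-2.92 and -2.57). Ccr1 was higher in iCre with IL-1b (3.04) and TNFa (3.15) against no ligand, and higher in iCre than in LacZ with TNFa (3.96). Of the atypical receptors, which bind chemokines without G protein signaling, the largest group means were 290.1 CPM for Ackr3, 40.7 CPM for Ackr4, 12.1 CPM for Ccrl2, 0.914 CPM for Ackr1 and 0.862 CPM for Ackr2. Ackr3, which binds CXCL12, rose in LacZ from 67.7 CPM to 290 CPM with IL-1b (log2 2.11) and 173 CPM with TNFa (1.35). Ccrl2, which presents chemerin, rose from 0.957 to 4.18 CPM with IL-1b (2.14) and 12.1 CPM with TNFa (3.66) and was lower in iCre with TNFa at 0.551 CPM (-4.42, adjusted p = 0.000181). Ackr4, a scavenger of Ccl19 and Ccl21, rose with bFGF in LacZ from 3.91 to 40.7 CPM (3.39), and Ackr2, the scavenger of inflammatory CC chemokines, rose from 0.155 to 0.862 CPM (2.45).

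Among 8 genes of chemokine presentation and trimming, Dpp4, a protease that clips the amino end of several chemokines, was lower in LacZ with all 4 ligands, by -2.53 with bFGF, -2.31 with TGFb, -3.46 with IL-1b and -1.87 with TNFa on the log2 scale. Sdc4, a heparan sulfate proteoglycan that holds chemokines at the cell surface, was higher with all 4, from 0.55 with TGFb to 1.57 with IL-1b. Mmp3, which cleaves the monocyte chemoattractants, rose with IL-1b (2.61) and TNFa (1.26), fell with TGFb (-1.04), and was lower in iCre with IL-1b (-2.45, adjusted p = 0.000779). In all, 4 of the 8 were higher and 1 lower in LacZ with IL-1b (11.1% and 9.55% of all genes), and 3 higher and 2 lower with TNFa (10.9% and 10.4%). On the route from the IL-1 and TNF receptors to NF-κB, 11 of 21 genes rose and 1 fell in LacZ with IL-1b, and 11 rose and 1 fell with TNFa, beside the same shares of all genes. Nfkbia, the NF-κB inhibitor that NF-κB itself induces, led both (2.54 and 3.46). Between iCre and LacZ, 6 of the 21 were lower and 2 higher with IL-1b (8.98% and 7.14% of all genes), led by Nfkbia (-0.97), Map3k7 (-0.82) and Chuk (-0.74), and 9 were lower and 2 higher with TNFa (12.6% and 14.8%), led by Myd88 (-0.88), Nfkbia (-0.83) and Map3k7 (-0.71).

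Within 500 kb of the cluster lie 10 other annotated genes, of which 3 had enough counts to test. Gm31522, a long noncoding RNA at 81983119 to 82019967, lies before Ccl2 on the - strand and runs away from it. Gm31522 had means of 0.0655 CPM (no ligand), 1.01 CPM (IL-1b) and 1.62 CPM (TNFa) in LacZ. In iCre the cytokine means were 0.296 CPM (IL-1b) and 0.487 CPM (TNFa). It rose with both in each culture and was lower in iCre than in LacZ with both. Tmem132e, at 82388900 to 82446332 on the other side, rose with TNFa in LacZ, from 0.291 to 2.03 CPM, and was lower in iCre with TNFa at 0.178 CPM. Ccl1, the third, had 12 counts over all libraries. Asic2 had 8 counts. The 6 others had 2 counts or fewer.

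By Pearson r of log2 CPM over the 10 group means, among 14142 genes with at least 1 CPM in some group, the nearest gene to Ccl2 was Ccl7 and the nearest to Ccl7 was Ccl2 (r 0.99), followed by Slc39a4 for both (0.98 and 0.97). Ccl8 lay nearest to the complement genes Cfb (0.99) and C3 (0.98), Ccl11 to Lix1l (0.98) and Abcc3 (0.97), and Ccl12 to Lrrc55 (0.97) and Art3 (0.96). Ccl5 lay nearest to Nrp2 (0.98), then to the cluster's neighbour Gm31522 (0.98) and Acod1 (0.98). Ccl9 was nearest to Nudt19 (0.93), Ccl17 to Fermt2 (0.99) and Smad7 (0.99), Ccl20 to Atp11a (0.99) and Ccl27a to 1700030K09Rik (0.98). Between members, Ccl8 and Ccl5 had r 0.94 and Ccl2 and Ccl5 0.92, across the boundary of the cluster, while Ccl11 and Ccl12 within it had 0.61. Ccl17 was negative with 8 of the other 9, from -0.05 with Ccl12 to -0.72 with Ccl27a. Over the 40 libraries the nearest gene was the same for Ccl2, Ccl7 and Ccl8 and another for the rest, namely Fgf7 for Ccl11 (0.87), Msr1 for Ccl12 (0.89), H2-Q4 for Ccl5 (0.95), Rab12 for Ccl9 (0.87), Smad7 for Ccl17 (0.94), Ripk2 for Ccl20 (0.92) and Ech1 for Ccl27a (0.86). The 10 points share libraries' virus and ligand contrasts, and the r values describe these groups only.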

How the data were processed

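Polyadenylated RNA of the 40 cultures was sequenced in single-end reads. Per the labels and the study's methods, the authors checked reads with FastQC (0.10.1 in the submitters' processing notes, another version in the methods), aligned them to mm10 with STAR and counted them per gene with HTSeq (0.10.0), and the deposited values are raw counts per Ensembl gene. The annotation release and the strand setting are not given in the sources used here, and the sources name 2 different library kits. Library totals of 25360947 to 66160732 counts (median 36183962) set the counting error.

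Genes with at least 10 counts over the 40 libraries were kept (25210 of 55414). Groups were compared with edgeR (4.0.16, R 4.3.3) by the quasi-likelihood F test with TMM normalization, fitted on the libraries of the groups compared, over 15 pairs of groups and 4 interactions, with Benjamini-Hochberg adjustment over all genes tested and a call at an adjusted p of at most 0.05. CPM values were TMM-scaled over all 40 libraries. The standard error is the size of the log2 fold change over the square root of F. The fits were tested on data simulated without a replicate effect.

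Libraries with the same replicate number deviated together from their group means (mean Pearson r 0.553, lowest 0.332 between compared groups, against a mean of -0.155 for different numbers, over 13090 genes). The numbers therefore pair the samples, as a relation found in the data and not stated in the labels. All 10 members are described in every group. From each list of other genes at most the 3 with the largest change were named per comparison. The members and lists were chosen with earlier results of these data known. Alternatives were DESeq2 (1.42.0), RLE normalization, 2 other filters, a single fit, the replicate block, a GC correction, both together, protein-coding genes only, and leaving out each replicate. Replicate 1 holds the lower range of library numbers, so leaving it out is the comparison within the upper range. Promoter sequences are from RefSeq (GRCm38.p6), and gene positions from GENCODE M21.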

Additional observations from a re-analysis of the deposited data

Results flagged for a closer look

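Of the 100 groups of 4 libraries (10 members in 10 groups), 12 held a library far from the other 3 by Dixon's test, where chance gives about 1 in 20. Replicate 2 was the far library for Ccl11 in LacZ with bFGF (13.8 CPM against 0.528 to 1.93 in the others) and in iCre with bFGF (11.9 against 0.944 to 1.66), TGFb (0.481 against 0.111 to 0.150) and IL-1b (17.3 against 2.42 to 4.02). Replicate 2 was also far for Ccl2 in iCre with TNFa (1207 CPM against 641 to 709), Ccl7 in iCre with TGFb (49.1 against 10.4 to 14.9) and Ccl9 in LacZ without ligand (34.2 against 16.7 to 18.8). Replicate 4 was far for Ccl5 in LacZ without ligand (12.4 CPM against 0.246 to 2.31) and in iCre with TGFb (3.68 against 1.158 to 1.198), for Ccl12 in LacZ with TGFb (0.455 against 0.0470 to 0.107), and, as the lowest library, for Ccl27a in iCre with TNFa (1.78 against 2.33 to 2.44). Replicate 1 was far for Ccl8 in iCre with TNFa (13.6 CPM against 6.97 to 7.82).

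The response to a ligand differed between iCre and LacZ, by edgeR's interaction term, in 8 of 40 tests. With IL-1b it was smaller in iCre for Ccl2 (-2.61 on the log2 scale) and Ccl7 (-1.69) and, in the opposite direction, 0.99 for Ccl27a. With TNFa it was smaller in iCre for Ccl2 (-2.05), Ccl7 (-1.65), Ccl8 (-2.35), Ccl5 (-3.07) and Ccl20 (-5.95).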

How the results depend on the processing

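Over the 190 pairs of member and comparison, no call was lost with DESeq2 (16 gained, 14 pairs without an adjusted p), the replicate block (36 gained) or the block with a GC correction (38 gained). With filterByExpr 168 pairs could be fitted, of which none lost a call and 2 gained one, and the other 22, of Ccl12 and Ccl20, held no call. The GC correction alone lost 7 and gained 1, the single fit of 40 libraries lost 6 and gained 5, protein-coding genes lost 1 and gained 2, and RLE normalization and no filter each lost 1 and gained 1. Leaving out replicate 1, 2, 3 or 4 lost 17, 3, 22 and 16 and gained 3, 12, 0 and 2. The cause of these changes was not tested, apart from the fewer libraries of the leave-outs. The block changed no other call than those gained.

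Each count of members called is followed by the share of all genes that the same fit called in either direction. With the replicate block 5 members were called for bFGF in LacZ (27.3%), 5 for TGFb in LacZ (42.0%) and 9 for IL-1b in iCre (33.8%). Between iCre and LacZ the blocked counts were 3 without ligand (14.5%), 3 with bFGF (13.9%) and 2 with TGFb (20.8%), and 5 for the IL-1b interaction (16.9%) and 5 for IL-1b against TNFa in iCre (17.1%). With block and GC correction they were 5 for TGFb in LacZ (42.7%), 5 for TGFb in iCre (41.2%), 9 for IL-1b in iCre (29.5%), 3 without ligand (15.0%), 3 with bFGF (14.2%) and 3 with TGFb (9.47%) between iCre and LacZ, 6 for the IL-1b interaction (12.4%) and 5 for IL-1b against TNFa in iCre (18.2%). The GC correction alone gave 0 for iCre against LacZ with TGFb (1.04%, against 8.37% without it), 4 with IL-1b (9.14% against 16.1%) and 1 for the IL-1b interaction (4.01% against 7.71%). DESeq2 gave 7 for IL-1b in iCre (22.3% against 16.3% in edgeR), 1 for iCre against LacZ without ligand (5.43% against 0.0754%) and 4 for IL-1b against TNFa in iCre (8.30% against 2.65%). iCre against LacZ without ligand had 1 without a filter (0.0900%) and 1 in the single fit (1.61%), and IL-1b against TNFa in LacZ had 2 in the single fit (9.54%).

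With 1 replicate left out, the members called ranged from 1 to 4 for bFGF in LacZ (all genes 1.32% to 18.2%), 0 to 3 for bFGF in iCre (0% to 12.7%), 1 to 3 for TGFb in iCre (27.0% to 40.0%), 0 to 1 for iCre against LacZ without ligand (0% to 2.78%), 0 to 1 with TGFb (2.01% to 12.5%), 4 to 8 with IL-1b (6.18% to 16.6%), 0 to 2 for the IL-1b interaction (2.37% to 6.85%), 2 to 4 for the TNFa interaction (5.39% to 15.4%), 2 to 4 for IL-1b against TNFa in LacZ (3.68% to 12.7%) and 0 to 2 in iCre (0.0317% to 3.31%). Ccl9 with IL-1b in LacZ ranged from -0.22 to 0.38 on the log2 scale and turned positive without replicate 2. Ccl12 and Ccl20 rest on few counts per library, which limits their folds.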
